A study of Oryctolagus cuniculus with 8 samples.

Results

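The complement genes described here are 9 genes of the C1 complex and of complement control, read in 8 rabbit retinas. They were chosen by name and comprise 5 components of C1 (C1QA, C1QB, C1QC, C1R and C1S) and 4 regulators (SERPING1, CLU, VTN and CD59). Each has 1 row among the 25666 genes of the expression table, of which 19293 are protein-coding. All 9 reached 1 FPKM in at least 2 libraries, so all 9 entered the tests. FPKM is the number of fragments on a gene, scaled for the length of the gene and the depth of the library.

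The retinas came from wild-type male Chinchilla rabbits of about 10 months, 2 for each of 4 diets that were given for 6 months. ND was standard chow. HFD was chow to which lard (10%) and cholesterol (0.5%) were added, and HSD was chow with sucrose at 40%. HFSD held the same lard and cholesterol as HFD together with sucrose at 35%. The diets are a feeding model of age-related macular degeneration, and the sources used here do not say whether the 2 retinas of a diet came from different animals. P values therefore measure the spread between these retinas.

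Complement is a cascade of plasma and tissue proteins that marks cells, debris and synapses for removal. Its classical branch starts with C1, in which C1q, built from the A, B and C chains, recognises a surface, and the proteases C1r and C1s then act in turn to cleave the next components. C1 inhibitor, encoded by SERPING1, blocks both proteases. Further down, clusterin (CLU) and vitronectin (VTN) keep the terminal complex from inserting into membranes from the fluid side, and CD59 stops its assembly on the cell surface. In nervous tissue C1q is made largely by microglia, and in the retina clusterin is made by Müller glia and other cells.

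Recovered library depths ran from 15764577 to 22785832 fragments, so that 1 fragment on a gene of 1 kilobase was worth 0.0439 to 0.0634 FPKM. Markers of retinal cells were present in all libraries, with 7 cone photoreceptor genes summing to 690 to 1366 FPKM. RLBP1, first of the Müller glia markers, was at 92.6 to 305 FPKM. HSD replicate 2 stood apart through skeletal muscle transcripts: 12 entries of 11 muscle genes summed to 594 FPKM there and to 7.24 to 9.50 FPKM in the other 7 libraries. ND replicate 1 had the highest summed myelin, astrocyte and mural cell markers. Its 8 myelin genes summed to 736 FPKM, and those of the other libraries to 47.0 to 484 FPKM. Several estimates are given below without one or both of these libraries.

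The 9 genes lay at very different levels. CLU was among the most abundant transcripts of the retina, with a mean of 658 FPKM over the 8 libraries, rank 76 of the 12204 genes tested. CD59 followed with a mean of 121 FPKM and rank 690. The other 7 genes were low and close together, from C1QC at 3.70 FPKM (rank 9895) through C1QB at 2.28, C1QA at 1.84, VTN at 1.73, SERPING1 at 1.63 and C1S at 1.40 to C1R at 0.925 FPKM (rank 11913). Within this low group the ranges over libraries of neighbouring genes overlapped. Of the regulators of the last step, CLU and CD59 were thus far above the C1 genes in level, and VTN was within their range.

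**Figure D1:**
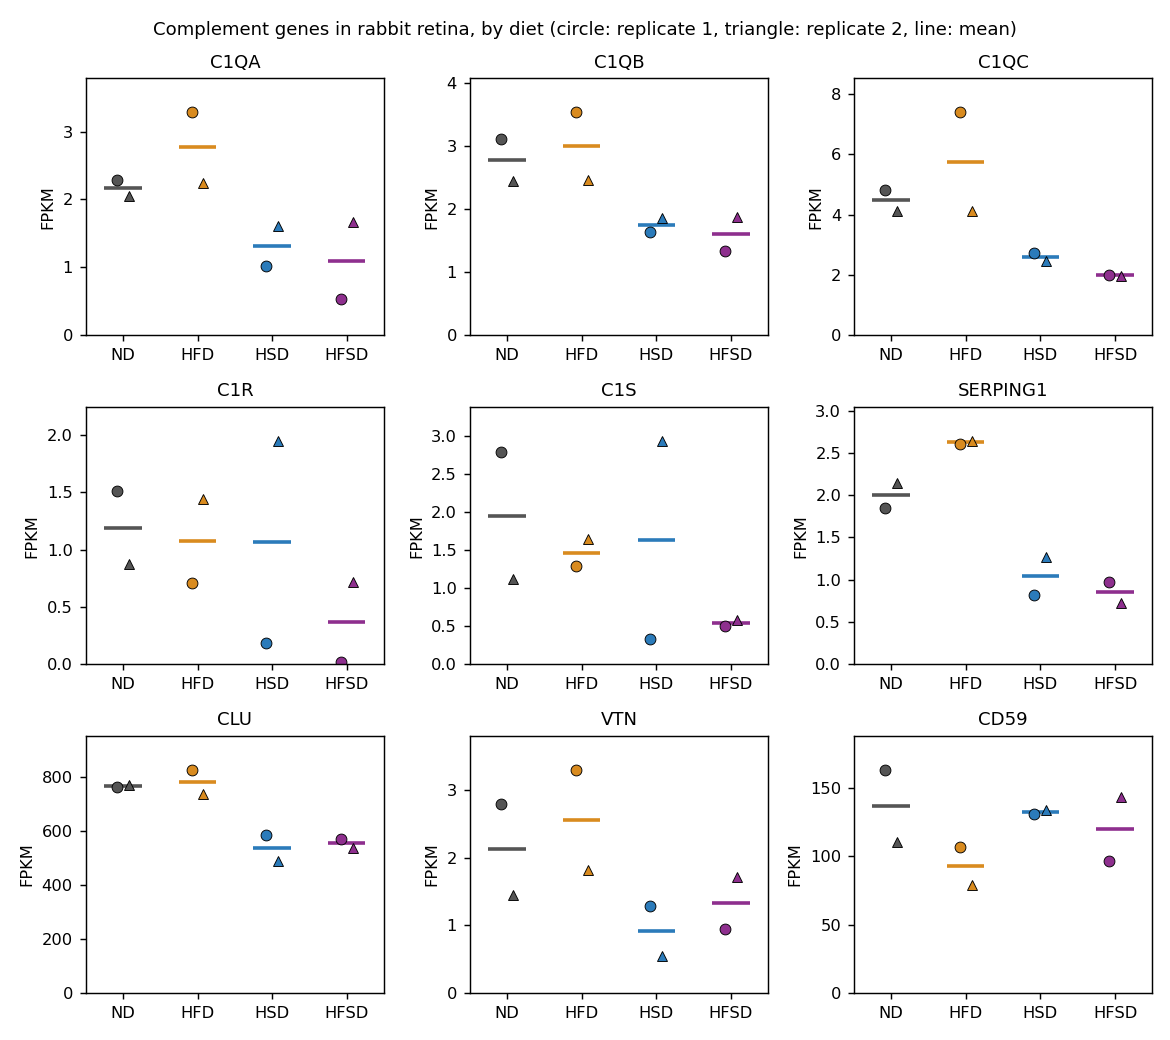
FPKM of the 9 complement genes (y axes, each with its own scale starting at 0) in the 2 retinas of each diet (x axes), with circles for replicate 1, triangles for replicate 2 and lines for group means. The 4 retinas of the sucrose diets lie below the 4 others for C1QA, C1QB, C1QC, SERPING1 and CLU, while the 2 HSD retinas lie far apart for C1R and C1S.

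The 3 chains of C1q were lower in retinas of rabbits fed either sucrose diet. C1QA was 2.28 and 2.06 FPKM in the ND pair, 3.29 and 2.24 in the HFD pair, 1.02 and 1.61 in the HSD pair and 0.527 and 1.67 in the HFSD pair. C1QB was 3.11 and 2.45 FPKM in the ND pair, 3.54 and 2.46 in the HFD pair, 1.64 and 1.85 in the HSD pair and 1.34 and 1.88 in the HFSD pair. C1QC was 4.82 and 4.12 FPKM in the ND pair, 7.41 and 4.11 in the HFD pair, 2.72 and 2.46 in the HSD pair and 2.0002 and 1.97 in the HFSD pair. For each chain every retina with sucrose lay below every retina without it, which held for 6.48% of all genes tested. HFD replicate 1 was the highest of all 8 for each chain. Both HFSD retinas held almost the same C1QC level, whereas their C1QA levels were far apart.

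The chains were counted on few fragments, from 32 to 175 for C1QA, 34 to 93 for C1QB and 58 to 276 for C1QC per library. Summed over the chains, C1q was 10.2 and 8.62 FPKM in the ND pair, 14.2 and 8.82 in the HFD pair, 5.39 and 5.92 in the HSD pair and 3.86 and 5.52 in the HFSD pair. C1QA gave 22.3% to 25.4% of it in the retinas without sucrose and 13.6% to 30.2% in those with sucrose. C1QB gave 24.9% to 30.5% without sucrose and 30.5% to 34.6% with it. C1QC was the largest share in every library, from 35.7% to 52.0%. In the gene order of the RefSeq rabbit table (assembly mOryCun1.1) the chains are direct neighbours, in the order C1QB, C1QC and C1QA.

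C1R and C1S, the paired proteases of C1, were far apart between the 2 HSD retinas. C1R was 1.51 and 0.870 FPKM in the ND pair, 0.710 and 1.44 in the HFD pair, 0.180 and 1.95 in the HSD pair and 0.0178 and 0.719 in the HFSD pair. C1S was 2.79 and 1.11 FPKM in the ND pair, 1.29 and 1.64 in the HFD pair, 0.335 and 2.94 in the HSD pair and 0.494 and 0.579 in the HFSD pair. The highest value of both genes was in an HSD retina, replicate 2, and the other HSD retina was among the lowest. Both HFSD retinas lay below both ND retinas for either gene, a pattern held by 20.6% of all genes tested.

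These are small numbers. C1R had 83 fragments in HSD replicate 2, 7 in HSD replicate 1 and 1 in HFSD replicate 1, and C1S had 144, 15 and 32 fragments in the same libraries. C1S exceeded C1R in 7 of the 8 libraries, and the ratio of their FPKM ran from 0.806 to 1.86 in all libraries except HFSD replicate 1, whose C1R level rests on that 1 fragment. C1R and C1S are also direct neighbours in the RefSeq gene order.

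HSD replicate 2 was the library with muscle transcripts, and it was highest in the fibrillar collagens of connective tissue too, which were picked out after their values were seen. COL1A2 was 2.93 FPKM in HSD replicate 2, 1.43 in ND replicate 1 and 0.0833 to 0.743 in the other 6 libraries. COL3A1 was 2.21 and 1.30 FPKM in these 2 libraries and at most 0.183 FPKM elsewhere. The 8 fibroblast markers of the table, of which COL1A1 was 2.22 FPKM in HSD replicate 2, 1.63 in ND replicate 1 and 0.0367 to 0.887 elsewhere, summed to 97.2 FPKM in HSD replicate 2 and to 39.2 to 61.2 FPKM in the others. The sum in ND replicate 1 was 47.8 FPKM, below 5 of the other 7 libraries. The 2 libraries with the most C1R and C1S were thus the 2 with the most of these collagens but not of the whole list, and the part of connective tissue in the C1R and C1S levels was not tested.

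**Figure D2:**
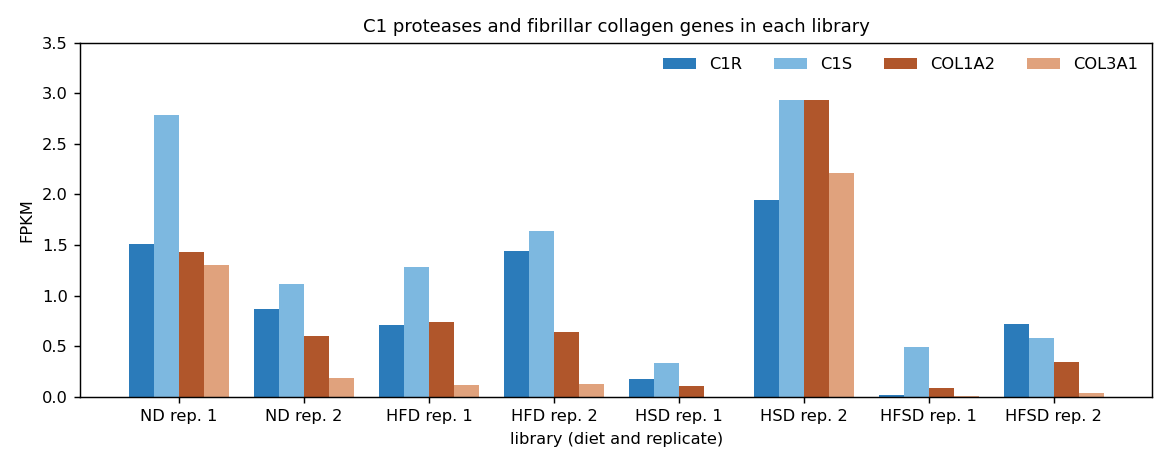
FPKM (y axis) of C1R, C1S, COL1A2 and COL3A1 in each of the 8 libraries (x axis), 1 bar per gene and library. HSD replicate 2 and ND replicate 1 have the tallest bars of C1R, C1S and both collagens, with C1S at 2.94 and 2.79 FPKM.

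SERPING1, the inhibitor of both proteases, was lower in the retinas with sucrose. It was 1.85 and 2.15 FPKM in the ND pair, 2.61 and 2.64 in the HFD pair, 0.818 and 1.27 in the HSD pair and 0.977 and 0.728 in the HFSD pair. The diets ranked without overlap from HFD through ND to the pair of sucrose diets, which overlapped each other. Its level relative to the proteases, as the ratio of SERPING1 to the sum of C1R and C1S, was 0.260 to 1.91 over the 8 libraries, with the lowest ratio in HSD replicate 2 and the highest in HFSD replicate 1.

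CLU, the most abundant of the 9 genes, varied least over the 8 libraries, with the highest value 1.69 times the lowest. Its level was 760 and 768 FPKM in the ND pair, 825 and 734 in the HFD pair, 583 and 488 in the HSD pair and 571 and 536 in the HFSD pair, on 15131 to 29619 fragments. The lowest retina without sucrose was thus above the highest with it. VTN was 2.80 and 1.46 FPKM in the ND pair, 3.31 and 1.82 in the HFD pair, 1.29 and 0.541 in the HSD pair and 0.947 and 1.71 in the HFSD pair. Both HSD retinas were below both ND retinas, and 1 HFSD retina was between the ND pair. CD59 behaved otherwise, with 163 and 110 FPKM in the ND pair, 107 and 79.2 in the HFD pair, 131 and 134 in the HSD pair and 96.3 and 143 in the HFSD pair. Its HFD retinas were the only pair outside the ND range, below it.

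The study asked whether fat and sucrose alone or together change the retina, and each diet was first compared with ND in limma on log2(FPKM + 1). Fold changes on this scale understate those of genes near 1 FPKM, and the 3 comparisons share the ND retinas. None of the 9 genes had an adjusted p under 0.05 in any of them, and none passed with voom on the recovered fragments. Of all genes tested, 0.00819% passed in limma for HFD, 0.0574% for HSD and 0.0164% for HFSD. At an unadjusted p under 0.05 and in the lower direction, limma listed none (0) of the 9 genes for HFD, 3 for HSD and 4 for HFSD. Of all genes tested it listed 2.51%, 4.51% and 4.37%.

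In HFD the estimates lay on both sides of 0, with 3 of the 9 lower than in ND. Log2 fold changes ran from -0.54 for CD59 to 0.28 for SERPING1 with a median of 0.07, against 0.01 over all genes. The limma adjusted p was 0.998 for all 9. CD59 was the only one with both HFD retinas below both ND retinas, a pattern held by 13.3% of the genes tested. SERPING1 was the only one with both above, which held for 12.5%. Without ND replicate 1 the estimate was -0.26 for CD59, 0.22 for C1S and 0.50 for VTN, against -0.54, -0.20 and 0.19 with it.

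In HSD all 9 estimates were below 0, from -0.70 for VTN to -0.02 for CD59, with a median of -0.46 against -0.0018 over all genes, of which 50.5% were lower. The smallest p values were those of CLU with an estimate of -0.52 (standard error 0.149, limma adjusted p=0.463), SERPING1 with -0.56 (standard error 0.198, limma adjusted p=0.591) and C1QC with -0.61 (standard error 0.239, limma adjusted p=0.675). C1R and C1S had estimates of -0.22 and -0.30 with standard errors of 0.472 and 0.497, so their 95% intervals reached from -1.32 to 0.89 and from -1.47 to 0.86. Both turned to positive values, 0.44 and 0.48, without HSD replicate 1, and were -0.88 and -1.08 without HSD replicate 2. The C1S estimate was also positive, at 0.12, without ND replicate 1, and the CD59 estimate was then 0.26. The VTN estimate was -0.39 without ND replicate 1 and -0.42 without HSD replicate 2. For 6 of the 9 genes (the C1q chains, SERPING1, CLU and VTN) both HSD retinas lay below both ND retinas, as they did for 19.7% of all genes tested.

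In HFSD all 9 estimates were again below 0, from -0.88 for C1S to -0.19 for CD59, with a median of -0.65 against -0.0040 over all genes, of which 50.8% were lower. The estimate was -0.87 for C1QC (standard error 0.239, limma adjusted p=0.440) and -0.70 for SERPING1 (standard error 0.198, limma adjusted p=0.457). For CLU it was -0.46 (standard error 0.149, limma adjusted p=0.529) and for C1QB -0.54 (standard error 0.214, limma adjusted p=0.598). The estimates of C1S and C1R were imprecise, at -0.88 (standard error 0.497, limma adjusted p=0.688) and -0.71 (standard error 0.472, limma adjusted p=0.740). With voom on fragments the C1R estimate was -3.33, and it rests on 1 fragment in HFSD replicate 1. The C1R estimate was -0.33 without HFSD replicate 1 and -1.09 without HFSD replicate 2. Both HFSD retinas lay below both ND retinas for 7 of the 9 genes, all but VTN and CD59, beside 20.6% of all genes tested. The CD59 estimate turned positive without ND replicate 1 (0.09) or without HFSD replicate 1 (0.10). Without ND replicate 1, C1S was -0.46 and VTN was -0.09.

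**Figure D3:**
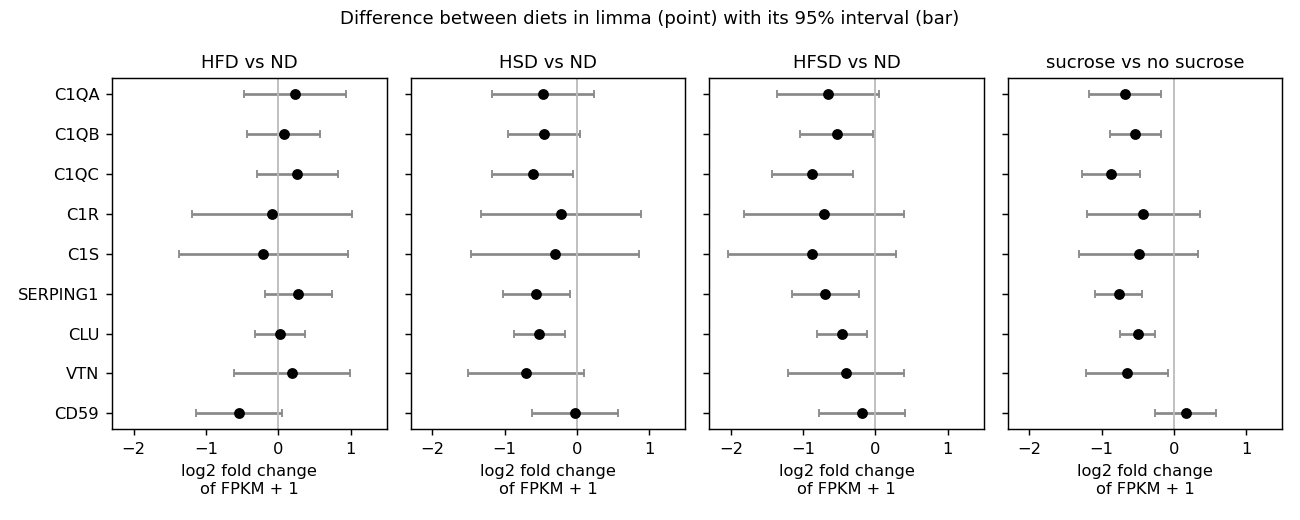
Log2 fold changes of FPKM + 1 (x axes) of the 9 genes (y axis) for each diet against ND and for the 4 retinas with sucrose against the 4 without, as limma estimates (points) with 95% intervals (bars). In HFD all intervals include 0, while with sucrose the intervals of C1QA, C1QB, C1QC, SERPING1, CLU and VTN lie below 0 before adjustment over all genes.

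The study itself selected genes by fold, as the FPKM of a diet plus 1 divided by that of ND plus 1, with limits of 0.65 and 1.54 and no test. Here group means were taken, which the study does not state, and more genes passed in HFSD than the study lists. By this rule none of the 9 genes was below the lower limit in HFD, where 0.809% of the protein-coding genes were. In HSD only VTN was, with a fold of 0.612, beside 2.42% of the protein-coding genes, and C1QC lay just outside at 0.656. In HFSD 4 of the 9 were, beside 2.4%, namely C1S with 0.521, C1QC with 0.546, SERPING1 with 0.618 and C1R with 0.625. C1QA was just outside at 0.661. These 4 are genes that the study named from the same libraries, so their count is not independent evidence.

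Single retinas decided much of this selection. In HFSD the count was 2 without ND replicate 1, when C1R and C1S dropped out, and 7 without ND replicate 2. It was 3 without HFSD replicate 1 and 6 without HFSD replicate 2. With the same retinas left out, 2.62%, 3.23%, 2.97% and 3.1% of the protein-coding genes were below the limit. In HSD it was 2 without ND replicate 2, 3 without HSD replicate 1 and 4 without HSD replicate 2, and without ND replicate 1 SERPING1 took the place of VTN. The share of the protein-coding genes was 3.36%, 2.96%, 3.32% and 2.42% in these 4 cases. In HFD it was 1, CD59, without ND replicate 2 or without HFD replicate 1, beside 2.16% and 1.77% of the protein-coding genes. C1QC was below the limit in HFSD with any one of the 4 retinas left out, and SERPING1 with all but HFSD replicate 2.

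HSD and HFSD share sucrose, so their 4 retinas were set as one group against the 4 of ND and HFD in the same limma model. Of the 9 genes, 8 were lower with sucrose and CD59 was higher, with a median log2 fold change of -0.53 against -0.01 over all genes, of which 51.3% were lower. At an unadjusted p under 0.05 and in the lower direction, limma listed 6 of the 9, beside 9.16% of all genes tested, and none (0) in the higher direction. None had an adjusted p under 0.05, as 0.344% of all genes did. All 4 retinas with sucrose lay below all 4 without for 5 of the 9 genes, beside 6.48% of all genes tested.

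SERPING1 was 0.948±0.238 FPKM with sucrose and 2.31±0.382 FPKM without (s.d., 4 retinas each), and its log2 fold change was -0.77 (standard error 0.140, limma adjusted p=0.0838). C1QC was 2.29±0.365 against 5.12±1.57 FPKM, and its log2 fold change was -0.87 (standard error 0.169, limma adjusted p=0.0916). CLU was 545±42.4 against 772±38.4 FPKM, and its log2 fold change was -0.50 (standard error 0.105, limma adjusted p=0.0983). These 3 genes, the inhibitor of C1, a chain of C1q and clusterin, came closest to the threshold. C1QB was 1.68±0.252 against 2.89±0.534 FPKM (log2 fold change -0.53, standard error 0.151, limma adjusted p=0.161). C1QA was 1.21±0.538 against 2.47±0.557 FPKM (log2 fold change -0.67, standard error 0.214, limma adjusted p=0.181), and VTN was 1.12±0.499 against 2.34±0.856 FPKM (log2 fold change -0.65, standard error 0.242, limma adjusted p=0.227). With voom on fragments, which adds no pseudocount of 1 FPKM, the low genes had larger estimates, such as -1.27 for SERPING1, -1.19 for C1QA, -1.16 for VTN and -1.13 for C1QC, and that of CLU was again -0.50. None of them passed there (lowest limma-voom adjusted p=0.0539).

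C1S, C1R and CD59 overlapped between the retinas with and without sucrose. The log2 fold change was -0.49 for C1S (95% interval -1.31 to 0.33, limma adjusted p=0.480), -0.42 for C1R (-1.20 to 0.36, limma adjusted p=0.521) and 0.16 for CD59 (-0.26 to 0.59, limma adjusted p=0.655). Without HSD replicate 2 the values were -0.88 for C1S and -0.75 for C1R, and without HSD replicate 1 they were -0.10 and -0.09. C1S was -0.28 without ND replicate 1, and C1R was -0.23 without HFSD replicate 1. CD59 was 0.022 without HFSD replicate 2, 0.023 without ND replicate 2, 0.056 without HFD replicate 2, and 0.31, 0.30 and 0.27 without HFSD replicate 1, ND replicate 1 and HFD replicate 1. Single retinas thus set the size of all 3 differences. Without ND replicate 1 and HSD replicate 2 together, the estimate was -0.67 for C1S, -0.88 for SERPING1, -0.80 for C1QC, -0.44 for CLU and -0.35 for VTN, with no limma adjusted p below 0.150, and C1R no longer reached 1 FPKM in 2 libraries.

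The call itself depended on how the spread was estimated. When the 8 libraries were fitted as 2 groups of 4, without a mean for each diet, CLU (adjusted p=0.0358) and SERPING1 (adjusted p=0.0384) passed the limma threshold and C1QC did not (adjusted p=0.0505), while 1.16% of all genes passed. Over all settings and left-out libraries, the limma adjusted p ran from 0.0358 to 0.336 for CLU, 0.0384 to 0.262 for SERPING1 and 0.0505 to 0.262 for C1QC. This fit treats HSD and HFSD retinas as one group and ND and HFD retinas as another. Leaving out single libraries was not run in it.

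**Figure D4:**
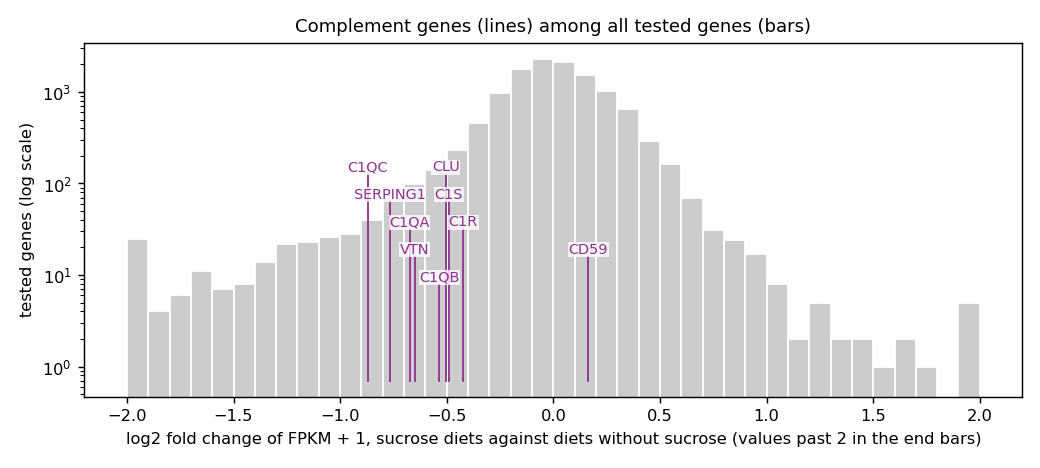
Number of tested genes (y axis, log scale) by log2 fold change of FPKM + 1 between retinas with and without sucrose (x axis, values beyond 2 placed in the end bars), with vertical lines for the 9 complement genes. C1QC and SERPING1, at -0.87 and -0.77, lie farthest to the left, and CD59 at 0.16 is the only one to the right of 0.

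For the 4 retinas with lard against the 4 without, log2 fold changes of the 9 genes ran from -0.39 to 0.24, with 4 of them lower. None passed in limma (lowest adjusted p=0.9996), 0 had an unadjusted p under 0.05, and 0.00819% of all genes passed. The interaction of fat and sucrose asks whether the log2 fold change in HFSD differs from the sum of those in HFD and HSD. It gave values from -0.53 to 0.37 for the 9 genes. None passed in limma (adjusted p=0.999), 0 had an unadjusted p under 0.05, and 0.00819% of all genes passed.

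The C1q chains were then set beside markers of microglia, their main source in nervous tissue. In whole retina, fewer cells of a type and less RNA per cell cannot be told apart. Of 19 microglia markers, 14 were in the table and 11 were tested. In limma 10 of the 11 were lower with sucrose, 2 at an unadjusted p under 0.05 and none at an adjusted p under 0.05. Of all genes tested, 51.3% were lower, 9.16% were lower at such an unadjusted p and 0.344% passed in either direction. The receptor gene CSF1R was 1.64 to 2.38 FPKM without sucrose and 0.583 to 1.12 with it (log2 fold change -0.61, limma adjusted p=0.148), and it was the only tested marker whose groups did not overlap. AIF1, first of the list, was 1.09 and 0.272 FPKM in the ND pair, 1.05 and 0.699 in the HFD pair, 0.284 and 0.459 in the HSD pair and 0.408 and 0.568 in the HFSD pair. No marker of the list was at 0 in every library.

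Summed over the 14 markers, microglia transcripts were 11.8 to 29.98 FPKM without sucrose and 12.1 to 18.2 FPKM with it. These sums overlapped between the groups. The part of microglial content in the C1q levels was not tested. Of the markers of perivascular macrophages, another source of C1q, MRC1 and CD163 were near 0, with MRC1 at 0.00715 to 0.166 FPKM and CD163 at 0 in 6 of the 8 libraries. The 5 macrophage genes summed to 0.700 to 4.84 FPKM without sucrose and 1.85 to 3.22 FPKM with it, with STAB1 at 0.222 to 3.87 FPKM over all libraries.

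**Figure D5:**
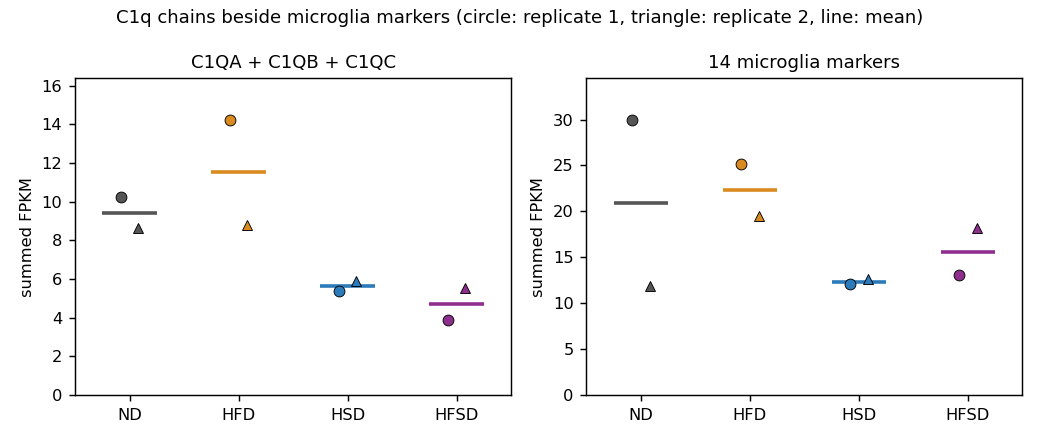
Summed FPKM of the 3 C1q chains and of 14 microglia markers (y axes) in the 2 retinas of each diet (x axes), with circles for replicate 1, triangles for replicate 2 and lines for means. The C1q sum separates the diets with sucrose (3.86 to 5.92 FPKM) from those without (8.62 to 14.2 FPKM), while the sums of these 14 markers overlap.

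CLU, which glia express strongly, was set beside other glial genes. The 10 Müller glia markers of the table summed to 3423 to 4257 FPKM without sucrose and 2137 to 2327 FPKM with it, and 8 of the 10 were lower with sucrose, 4 of them at an unadjusted p under 0.05 in limma. Of all genes tested, 51.3% were lower and 9.16% were lower at such a p. RLBP1, first of the list and a carrier of retinoids, was 150 to 305 FPKM without sucrose and 92.6 to 131 with it (log2 fold change -1.005, limma adjusted p=0.103). The summed pigment epithelium markers, given below, were lower with sucrose too, and the part of that tissue in the RLBP1 level was not tested. The Müller glia marker SLC1A3, a glutamate transporter, was 180 to 203 and 185 to 191 FPKM. The 6 astrocyte markers summed to 395 to 1151 FPKM without sucrose and 236 to 478 with it, with 4 of 5 tested markers lower and 1 called, as were 0.344% of all genes tested. GFAP, first of that list, was 12.1 to 524 FPKM without sucrose and 1.08 to 69.5 with it, so it varied far more between retinas than CLU did. The part of glial content in the CLU levels was not tested.

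Transcripts of tissue next to the retina varied between libraries. The 13 pigment epithelium markers summed to 468 and 463 FPKM in the ND pair, 234 and 269 in the HFD pair, 202 and 129 in the HSD pair and 171 and 114 in the HFSD pair, so the sums were lower than in ND with all 3 other diets. Of the 10 tested, 9 were lower with sucrose, all 9 at an unadjusted p under 0.05 in limma and none called, beside 51.3%, 9.16% and 0.344% of all genes tested. RPE65, first of that list, was 119 and 74.6 FPKM in the ND pair and 10.1 to 34.8 FPKM in the other 6 retinas. Without and with sucrose, the 11 endothelial markers summed to 120 to 152 and 105 to 136 FPKM, with PECAM1 at 0.0485 to 1.62 and 0 to 1.27 FPKM, and the 8 mural cell markers to 6.96 to 21.3 and 3.79 to 9.36 FPKM. The 7 cone markers summed to 690 to 1020 FPKM without sucrose and to 1216 to 1366 FPKM with it. All 7 were higher at an unadjusted p under 0.05 in limma, beside 2237 of the 12204 genes tested at such a p in either direction. Of these 7, 2 were called, beside 0.344% of all genes tested. The 5 blood genes stayed at or below 2.72 FPKM in sum in every library. The 8 myelin genes summed to 99.4 to 736 FPKM without sucrose and to 47.0 to 162 FPKM with it. All 8 were lower, 7 of them at an unadjusted p under 0.05 in limma and none called, beside 51.3%, 9.16% and 0.344% of all genes tested. The part of these tissues in the levels of SERPING1, VTN and the C1 genes was not tested.

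Other genes of the pathway were mostly at or near the floor. Of 49 further complement genes, 27 were in the table, and the other 22, C3 among them, were not analysed here. Only 8 of the 27 were tested: the properdin gene CFP and the lectin COLEC11, which act in activation, the regulator genes SUSD4, CSMD2, CSMD3 and CR1, and the receptors LRP1 and MEGF10. None was called in limma in any diet or with sucrose. With sucrose 4 of the 8 were lower and 4 higher, and CSMD3 alone had an unadjusted p under 0.05, being higher at 1.22 to 1.38 against 0.564 to 1.14 FPKM (limma adjusted p=0.255). SUSD4, an inhibitor of the C3 convertase, was steady at 18.5 to 21.4 FPKM over the 8 libraries. In 16 of the 27 genes every library was under 1 FPKM, and 4 were listed at 0 throughout. Genes of the terminal complex, on which CLU, VTN and CD59 act, were at most 0.0585 FPKM in any library (5 genes). CD93, a receptor of endothelial and myeloid cells once described as a C1q receptor, was the only one past a fold limit, with 1.48 and 0.0234 FPKM in the ND pair, 0.622 and 0.521 in the HFD pair, 0 and 0.624 in the HSD pair and 0 and 0.105 in the HFSD pair, and it was too low for the test.

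Across the 8 libraries, other genes shared the pattern of these groups. The pattern of the C1q chains was the mean z-score of their log2(FPKM + 1), and its Pearson correlation was highest for SCAMP2 (0.985), GALK2 (0.976), STX10 (0.968), SUMO3 (0.964) and LARP6 (0.963). SCAMP2 was 9.57 to 11.1 FPKM without sucrose and 8.10 to 8.74 with it. Of all tested genes with a symbol, 62 had a correlation above 0.9. Among the complement genes, the correlation with the C1q pattern was 0.848 for SERPING1, 0.835 for CLU, 0.809 for VTN, 0.510 for C1S, 0.508 for C1R and -0.02 for CD59.

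The pattern of C1R, C1S and SERPING1 was closest to ASPA (0.972), FARS2 (0.959), CENPO (0.946), PRKCQ (0.942) and CCDC77 (0.916), and 9 genes had a correlation above 0.9. ASPA was 4.33 and 3.55 FPKM in the ND pair, 3.46 and 3.54 in the HFD pair, 1.91 and 4.10 in the HSD pair and 2.004 and 1.98 in the HFSD pair. Like C1S, it was high in HSD replicate 2 and low in the other retinas with sucrose. C1R was high in HSD replicate 2 too, but at 0.719 FPKM in HFSD replicate 2 it was just above HFD replicate 1 with 0.710. These correlations describe 8 libraries that share depth and tissue content, and they carry no test.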

How the data were processed

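The authors checked reads of 8 TruSeq libraries with FastQC, trimmed them, aligned them to the rabbit genome by TopHat2, dropped reads with several locations and computed FPKM with their own R script. The deposited FPKM values were used as they are. The build is not given in the sources used here, so no coordinates or sequences are printed. Symbols were taken from the table, and the gene order from RefSeq (mOryCun1.1).

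Each diet was compared with ND, and sucrose, fat and their interaction were tested, with limma 3.58.1 in R 4.3.3 on log2(FPKM + 1), with a trend of the variance on the mean, 8 libraries and 1 mean per diet. A protein-coding gene was tested if 2 or more libraries reached 1 FPKM (12204 genes), with Benjamini-Hochberg adjustment over all of them and a threshold of 0.05. Fragments were recovered from the steps of the FPKM values, whole within 0.02 fragments for 20060 of 20061 genes. They carry counting error as well as the spread between retinas. Alternatives were a pseudocount of 0.1, no filter, 2-group fits, median-ratio scaling, summed fragments as depth, voom on fragments, a replicate block, and single libraries left out. The model was tested on simulated data.

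The genes and marker lists were chosen with earlier results of these data known. Some listed markers are not reported here, and the microglia sums were taken without them, a choice made after the data were seen. The text names the 9 genes, listed complement genes that were tested or past a fold limit, the first marker of a list and the 5 genes closest in pattern. CSF1R, STAB1, SLC1A3, COL1A2, COL3A1, CD163 and PECAM1 were named otherwise or after their values were seen. Genes whose reads a close copy could share are uncertain, since reads with several locations were dropped. Replicate numbers did not pair the retinas: the correlations of deviations were -0.165 to 0.0813.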

Additional observations from a re-analysis of the deposited data

How the results depend on the processing

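With sucrose against no sucrose, none of the 135 values recomputed under other settings changed sign. The 2-group fit of sucrose, on all 8 libraries without a mean for each diet, made 2 calls, SERPING1 (-0.77) and CLU (-0.50). With the replicate block 0 of the 9 genes were called in any comparison, so the block changed no call. With a pseudocount of 0.1 the numbers of genes below the fold limit were 5 in HSD and 7 in HFSD, beside 6.57% and 6.84% of the protein-coding genes. With single libraries left out, the counts were 0 to 1 in HFD, 1 to 4 in HSD and 2 to 7 in HFSD. In HFD 9 of 135 values reversed, in HSD 5 of 135 and in HFSD 2 of 134. Some alternatives leave an estimate as it is, such as no filter, the replicate block or leaving out a library of another diet. All these counts, that for sucrose included, therefore overstate how stable the signs were. With libraries left out, HFD estimates ranged from -0.12 to 0.27 for C1QB, -0.095 to 0.62 for C1QC, -0.34 to 0.17 for C1R, -0.62 to 0.22 for C1S, -0.056 to 0.11 for CLU and -0.13 to 0.50 for VTN. In HSD they ranged from -0.88 to 0.44 for C1R, -1.08 to 0.48 for C1S and -0.30 to 0.26 for CD59, and in HFSD from -0.47 to 0.10 for CD59. With summed fragments as depth, CD59 in HSD was 0.015. Without ND replicate 1 and HSD replicate 2 together, chosen after the data were seen, C1S in HFD was 0.22, and CD59 was 0.24 in HSD and 0.092 in HFSD. C1R was not tested in the HFSD fit of only the libraries compared, nor without both libraries, since it then failed the filter. With 2 retinas a diet and at most 295 fragments on each of the 7 low genes, small differences could be missed. The smallest detectable difference was not computed.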

Other observations

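Of the 19 listed complement genes that were in the table but not tested, C2, ITGAM and ITGB2 were lower in every retina with sucrose than in every retina without it, and they were picked out after their values were seen. Of the genes that were tested, 6.48% showed this. That share covers genes that passed the filter, which these did not, and the share among genes below the filter was not counted. C2, the zymogen that C1s cleaves, was 0.205 to 0.380 FPKM without sucrose and 0.0580 to 0.146 FPKM with it. ITGAM and ITGB2 encode the chains of complement receptor CR3 of myeloid cells. ITGAM was 0.169 to 0.338 FPKM without sucrose and 0.115 to 0.134 FPKM with it, and ITGB2 was 0.450 to 0.973 and 0.383 to 0.438 FPKM. All 3 stayed under 1 FPKM in every library, and no test was made of them.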
